A study of Drosophila melanogaster with 2 samples.

Results

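Of the 1338 reproducible Pita peak summits on dm6, 251 lay inside an annotated gene and more than 500 bp from any transcription start site (TSS), which is 18.8% (95% exact Clopper-Pearson interval 16.7 to 21.0). These gene-body peaks are described here. They were chosen by position alone. A summit had to be in the authors' optimal peak list, thresholded by IDR (irreproducible discovery rate, a comparison of peak ranks between replicates), had to fall inside a gene, and had to clear the TSS limit. The other summits of the list were 813 promoter summits within 500 bp of a TSS and 274 intergenic summits. The study measured by chromatin immunoprecipitation with sequencing (ChIP-seq) where the protein Pita sits in embryos of a transgenic Drosophila melanogaster line that stably expresses Pita with GFP fused to its C-terminus. Embryos of mixed sex, 0 to 24 h old, gave chromatin sonicated to 200 to 800 bp. One field of the labels describes precipitation with anti-GFP and another names an antibody to pita. All libraries belong to 1 group, biological replicates 1 and 3, so no contrast between conditions exists. Embryos of this age range pool many stages and cell types, so neither can be resolved, and the tagged protein comes from a transgene. The labels do not say whether the replicates came from separate cages or collections, so differences between them may be technical in part.

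Pita is a zinc-finger DNA-binding protein of the architectural (insulator) class. Such proteins bind boundaries between regulatory domains, and Pita is known for binding boundaries of the bithorax complex, a cluster of Hox genes that specifies the posterior segments, where it recruits the cofactor CP190. CTCF is another architectural protein with its own recognition sequence, and it also binds boundaries in that complex.

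A 19 bp sequence shared by 121 of these peaks is shown here for 8 of them, mostly from the strongest, because later counts rest on it. A scoring matrix of 19 bp was learned on promoter and intergenic peaks only, so no gene-body peak shaped it, and it was then run over the 101 bp around each gene-body summit. In each line the 19 bp that scored above the threshold is in capitals, with a few flanking bases in lower case, 5′ to 3′ on the strand of the match, from the RefSeq sequence of dm6.
Abd-B, intron, chr3R:16969765-16969794, minus strand: ctattTTAGCGAGTGCACCCTCCTagtcta
scrib, coding exon, chr3R:26566931-26566960, plus strand: ccaagTTAGCTGAGACCCCAACCGagaccc
wb, intron, chr2L:14288082-14288111, plus strand: cactcAAAGCCGGGGCACACACCAgccaag
Hr4, intron, chrX:1953152-1953181, minus strand: ttgccGTAGCCGGCGCACCAACCTctggcg
Spn, intron, chr3L:2531517-2531546, plus strand: cgagtTTAGCTGAGACACGAACCAgctgaa
pb, intron, chr3R:6709083-6709112, minus strand: acatcGTAGCTAGTACACAAGCCAtacacg
klar, coding exon, chr3L:506181-506210, minus strand: caactACATTATGGACACGAACCTtttgga
Antp, intron, chr3R:6973432-6973461, minus strand: atcctTCAGTCGAGACATGAACCCggaatg
The most constant bases of these sites were a pair of cytosines near the right end of the capitals. Among the 121 gene-body sites, cytosine stood at position 17 in 99.2% and at position 18 in 96.7%, counted from 1 at the first capital. Adenine stood at position 3 in 95.9%. The word AACC occurred in 94 sites (77.7%), and the left end was looser, with TAGC in 52 sites (43.0%).

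A smaller set of gene-body peaks carried a CTCF core word, AGATGGCG or AGGTGGCG, searched on both strands. Those below are shown because they include peaks with and without the 19 bp sequence and a peak in each of 2 Hox complex non-coding RNAs. The core word is in capitals.
Asator, intron, chr4:486766-486795, plus strand: aaaattccaaaAGGTGGCGctgcatgtaca
Hr4, intron, chrX:1953107-1953136, minus strand: ggctgctgcacAGATGGCGccagccaactg
nrv2, intron, chr2L:6797564-6797593, minus strand: gctattcagccAGGTGGCGctaaaaagttg
lncRNA:bxd, intron, chr3R:16748720-16748749, plus strand: accgaatccatAGATGGCGcatgcaactca
lncRNA:iab8, intron, chr3R:16919215-16919244, minus strand: ttaccaaggccAGGTGGCGctgcaaggcgg
Hr4 and nrv2 had both the 19 bp sequence and a core word within the same window. In Hr4 their centres lay 46 bp apart and in nrv2 20 bp apart.

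Where in the gene the peaks lay was the first comparison. Of the 251 gene-body summits, 35 lay within 300 bp of a stronger IDR summit, all 35 on its right side along the plus strand, at a median distance of 201 bp (range 199 to 255 bp). These 35 shoulder summits, of which 2 had the 19 bp sequence, were set aside, and the 216 remaining summits are called gene-body lead peaks. The intron class held 158 of the 216 lead peaks, which is 73.1% (66.7 to 78.9). Other gene-body candidates were thinned at the same 300 bp, but against any stronger pooled candidate and not only IDR summits. Among the 16914 left, introns held 57.1%. The odds ratio was 2.04 (two-sided Fisher's exact test, adjusted p = 3.73e-06 over 5 location classes). Introns made up 67.0% of gene-body length, inside the interval of the lead-peak share. The intron difference is thus relative to the other candidates only, and no test was run against length. Other candidates are entries of the 30000 pooled candidates that were not in the IDR list, and they were deposited as peaks and background. Coding exons held 13 lead peaks, 6.02% (3.24 to 10.1), against 28.6% of the other candidates, an odds ratio of 0.160 (exact test, adjusted p = 5.00e-16). The 3' UTR held 34 lead peaks (15.7%) against 11.2% of the other candidates (exact test, adjusted p = 0.0837). The 5' UTR held 7 (3.24%) against 1.79% (exact test, adjusted p = 0.146), and exons of non-coding transcripts held 4 (1.85%) against 1.25% (adjusted p = 0.352). The last 3 differences did not pass the threshold. These p-values describe the peak list, since peaks are not replicates, and the intervals cover the counting of peaks only, because the lists hold no read counts and read depth is unknown.

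**Figure D1:**
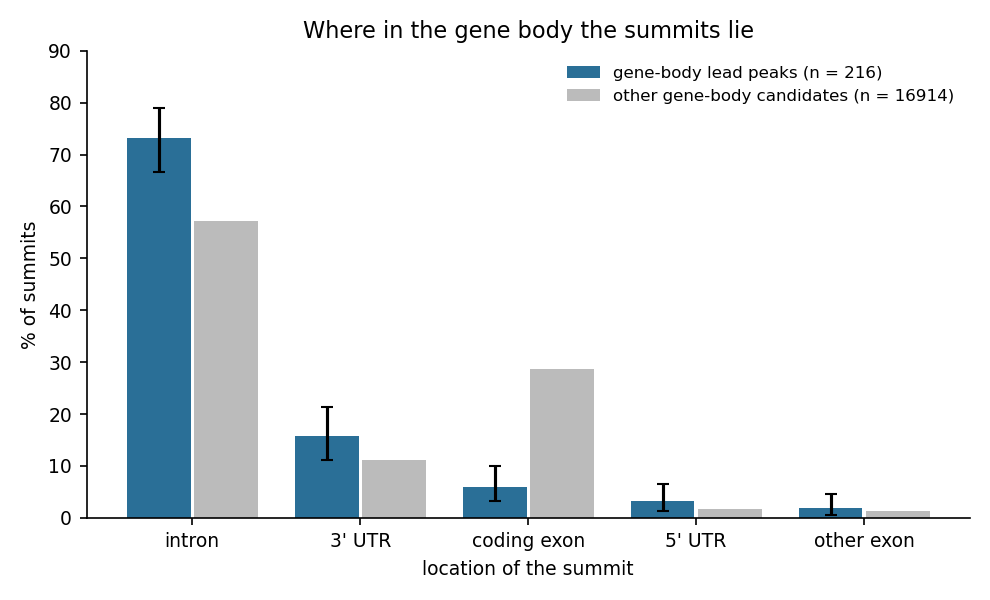
Percentage of summits (vertical axis) in each gene-body location (horizontal axis) for 216 gene-body lead peaks (blue, with exact 95% intervals) and 16914 other gene-body candidates (grey). Introns hold 73.1% of lead peaks and 57.1% of other candidates, and coding exons hold 6.02% and 28.6%. Of gene-body length, introns make up 67.0% and coding exons 21.9%.

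As background for these counts, 4.46% of all 30000 pooled candidates were in the IDR list. Among the 19786 candidates that lay in gene bodies the share was 1.27%. Gene bodies made up 58.4% of the genome and 68.2% of the 28662 other candidates, against the 18.8% of IDR summits given above. Introns made up 67.0% of gene-body length, coding exons 21.9% and 3' UTRs 8.43%. For lead peaks the coding-exon interval, 3.24 to 10.1, lay below 21.9%, and the 3' UTR interval, 11.2 to 21.3, above 8.43%. Lead peaks in introns sat in introns of 9230 bp at the median (quartiles 2508 and 25790 bp), and 68 of the 158 were in the first intron of any transcript. Neither value was computed for other intron candidates or for intron sequence at large, so neither has a background here. The median distance to the nearest TSS was 2396 bp, with quartiles of 1174 and 4687 bp and a maximum of 254799 bp. For 128 of the 216 lead peaks the nearest TSS belonged to the gene they lay in. Along the host gene, in the direction of transcription, the median position was 53.0% (quartiles 27.7% and 84.2%). No lead peak lay in an annotated transposable element, which allows a share of up to 1.69%. The share of gene-body length or of other candidates in such elements was not computed, so this count has no background.

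The hosts were mostly long genes. In all, 199 genes held a lead peak, 1.09% of all 18277 genes, and 187 of them were protein-coding. The protein-coding hosts had a median length of 25671 bp, where all 13968 protein-coding genes had a median of 2165 bp. A lead peak was found in 126 of the 1397 genes in the longest decile (9.02%), in 1.72% of genes between the 75th and 90th percentile of length, and in 12 of 6984 genes in the shorter part below the median (0.172%). Counted per length, the groups lay closer together, with 2.61 lead peaks per Mb of gene length in the longest decile. The density was 2.18 per Mb between the 75th and 90th percentile, 1.15 between the median and the 75th percentile and 1.42 below the median. Gene length here includes the 500 bp around each TSS, where no gene-body peak can lie and which takes up more of a short gene. The rule by itself thus lowers the counts and densities of short genes, and no density without that zone was computed. Of the 216 lead peaks, 41 lay in a gene of any kind that also had an IDR summit at a TSS. The background is counted over genes, not peaks. Of all protein-coding genes 5.68% had such a promoter summit, itself 10.8% in the longest decile and 3.44% below the median length. Among protein-coding hosts it was 27 of 126 in the longest decile (21.4%) and 0 of 12 below the median. Between the 75th and 90th percentile 5 of 36 hosts had one (13.9%), against 9.83% of genes. Between the median and the 75th percentile 1 of 13 had one (7.69%), against 5.64%. No test was run.

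The strongest gene-body peak lay in the first intron of Abd-B, the posterior Hox gene of the bithorax complex. Its summit at chr3R:16969744, 1170 bp from a TSS, had a signal of 1641 in replicate 1 and 1850 in replicate 3, and 3492 in the pooled list, where it ranked 16 among all IDR summits. Signal is the authors' own value for a peak and serves here only to order peaks of the same list. Only 2 other gene-body peaks were among the first 50. GstS1, a glutathione S-transferase gene, had a first-intron peak with signals of 1476 in replicate 1 and 1646 in replicate 3. The coding-exon peak of scrib, which encodes a scaffold of basolateral cell polarity, had 1203 in replicate 1 and 1414 in replicate 3. All 3 ranked between 13 and 50 in each replicate.

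Among the 20 strongest lead peaks, 16 were intronic, and their hosts had varied functions. Egfr, the epidermal growth factor receptor, had an intron peak with 1070 in replicate 1 and 1469 in replicate 3. Tet, a TET-family dioxygenase gene, had one 27220 bp from the nearest TSS, with 1098 in replicate 1 and 1289 in replicate 3. Hosts for transcription factors were retn (an ARID-domain protein), Eip74EF (an ETS protein induced by ecdysone), bun (of the TSC22 family), the nuclear receptor genes Hr4 and EcR, and the Hox gene pb. The pooled signal of these 6 peaks lay between 1718 at EcR and 2259 at retn. EcR had 768 in replicate 1 and 962 in replicate 3, and Eip74EF had 913 in replicate 1 and 1092 in replicate 3. Further intron peaks of the 20 were in sick (at 2117 and 1643 pooled), in the laminin gene wb (2088), in Asator, a tau tubulin kinase gene (2031), in Spn, the spinophilin gene (1938), and in nrv2, a subunit gene of the sodium and potassium pump (1760).

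Exonic peaks were fewer. In the 3' UTR class the strongest were CG5966, with 907 in replicate 1 and 1036 in replicate 3, and a peak where sv, a Pax-family gene, overlaps the calsyntenin gene Cals, with 739 in replicate 1 and 994 in replicate 3. After scrib, the strongest coding-exon peak was in klar, a KASH-domain protein gene for nuclear and organelle positioning, with 830 in replicate 1 and 1065 in replicate 3. The strongest 5' UTR peaks were in Wdr62, a spindle and centrosome protein gene, with 810 in replicate 1 and 812 in replicate 3, and in bves, with 445 in replicate 1 and 423 in replicate 3. Exons of non-coding transcripts had weaker peaks, the strongest at S6KL and its antisense RNA with a pooled signal of 337 and at lncRNA:CR45328 with 241.

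Hox complex genes had the highest share of hosts among the gene lists, with 5 of 13 (38.5%) holding a lead peak (pb, Antp, Abd-B, lncRNA:iab8 and lncRNA:bxd). Over all genes the share was 1.09%, and over protein-coding genes of the longest decile 9.02%. The 9.02% leaves out non-coding genes, while the Hox list and its hosts include lncRNA:iab8 and lncRNA:bxd. The lists were written with earlier results of these data known. The list had a median gene length of 26862 bp. Abd-B had a second intron peak at chr3R:16957956, with 671 in replicate 1 and 773 in replicate 3. The non-coding RNA gene lncRNA:iab8, transcribed through the regulatory region between abd-A and Abd-B, held the most lead peaks of any gene, 5, all in introns. The strongest of these had 360 in replicate 1 and 391 in replicate 3. The other 4 had pooled signals between 146 and 291. Of the 5, 1 had the 19 bp sequence and 2 had a CTCF core word. The peak in lncRNA:bxd, in the regulatory region of Ubx, had 299 in replicate 1 and 302 in replicate 3 and a CTCF core word without the 19 bp sequence.

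In the Antennapedia complex, Antp, the Hox gene for thoracic identity, held 4 lead peaks. From the strongest in the pooled list down, their signals in replicate 1 were 479, 188, 138 and 194, and in replicate 3 they were 629, 335, 201 and 117. The order of the weaker peaks thus differed between the replicates. The strongest, 15116 bp from the nearest TSS, had the 19 bp sequence, and so did the weakest, while the second carried a CTCF core word. The Hox gene pb had an intron peak with 938 in replicate 1 and 992 in replicate 3, and a weak coding-exon peak with 111 in replicate 1 and 92.4 in replicate 3. Both pb peaks had the 19 bp sequence.

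Other genes with 3 or more lead peaks were CG32816 with 4, klar with 3, sick with 3, and CG46458 and MSAmiP with 3 each, the last 2 because they overlap Antp and lncRNA:iab8. CG32816, which is 154151 bp long, had pooled signals between 194 and 417. In klar the peaks lay in the coding exon named above, in an intron (190 in replicate 1, 347 in replicate 3) and in a 5' UTR (70.2 in replicate 1, 83.2 in replicate 3), and all had the 19 bp sequence. In sick, all were intronic and the strongest had 968 in replicate 1 and 1157 in replicate 3. Another 20 genes held 2 lead peaks each and 172 genes held 1.

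In the other gene lists, too, the shares are set beside 1.09% of all genes and 9.02% of the longest decile. Among axon guidance and cell adhesion genes, with a median length of 45143 bp, 3 of 26 (11.5%) held a lead peak, the receptor phosphatase gene Lar (156 in replicate 1, 101 in replicate 3), the teneurin gene Ten-a (101 in replicate 1, 89.4 in replicate 3) and the cadherin gene CadN. CadN had a peak with 204 in replicate 1 and 213 in replicate 3, and a second with 77.2 in replicate 1 and 39.7 in replicate 3, where it ranked 2492. Signalling genes, with a median length of 13562 bp, had 3 of 28, or 10.7% (Egfr above, the Egfr ligand gene spi and the BMP receptor gene tkv). The spi peak had 221 in replicate 1 and 211 in replicate 3, and the tkv peak had 90.2 in replicate 1 and 144 in replicate 3. Ion channel and synaptic genes, with a median length of 51457 bp, had 2 of 22 (9.09%), the potassium channel gene Sh (89.0 in replicate 1, 69.1 in replicate 3) and dnc, a cAMP phosphodiesterase gene, with peaks of 213 and 179 in the pooled list. The actin and myosin list, with a median length of 6585 bp, had 1 of 23 (4.35%), the fascin gene sn (166 in replicate 1, 160 in replicate 3). No lead peak lay in any of 23 Polycomb and Trithorax group genes or of 25 patterning transcription factor genes, whose median lengths were 7560 and 4042 bp. Sizes of hosts differ between lists, and no list was tested.

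The gene that encodes Pita carried a peak of its own. Its first-intron summit lay 521 bp from a TSS of pita and had a signal of 683 in replicate 1 and 651 in replicate 3 (1352 pooled), with the 19 bp sequence. It was the only host among 18 insulator and architectural protein genes. It is also a member close to the TSS limit, together with AGO2 at 501 bp (pooled signal 144, a shoulder summit) and CG32196 at 511 bp (859). Just on the promoter side were summits in pk at 498 bp (192), in Ca-beta at 495 bp (642) and in CG42268 at 494 bp (175). Inside genes, 12 summits lay 501 to 600 bp from a TSS and 19 lay 400 to 500 bp from one, so the limit cuts through a continuous range.

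Gene-body peaks had lower signals at the median than promoter peaks. The median pooled signal was 366 over the 216 gene-body lead peaks (quartiles 212 and 821), 837 over 629 promoter lead peaks (393 and 1460) and 464 over 235 intergenic lead peaks (263 and 1014). The order was the same in both replicates. In replicate 1 the medians were 182 for gene-body, 372 for promoter and 219 for intergenic lead peaks, and in replicate 3 they were 202, 440 and 266 in that order. Among gene-body classes the medians were 404 in introns, 340 in 3' UTRs, 232 in coding exons, 514 in 5' UTRs (7 peaks) and 229 in other exons (4 peaks), with ranges that overlapped throughout. First introns had a median of 366 and later introns 410. No test was run on signal.

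**Figure D2:**
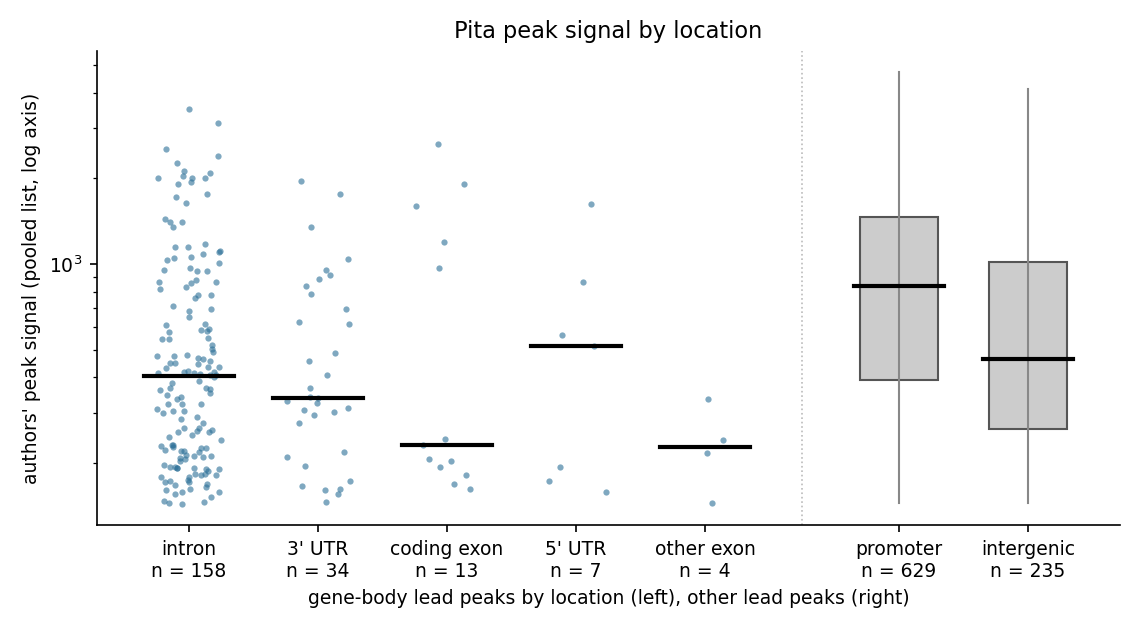
Authors' pooled peak signal (vertical log axis) of each gene-body lead peak by location (blue points, black bar at the median), and the median, quartiles (box) and full range (line) of promoter and intergenic lead peaks. The gene-body classes overlap, and promoter lead peaks have a median of 837 against 366 for all gene-body lead peaks.

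The peaks were chosen for recurring at like ranks in both replicates, so the values that follow describe the selected list and do not test it. A candidate summit within 100 bp was found in replicate 1 for 245 of 251 gene-body summits (97.6%) and in replicate 3 for 248 (98.8%). For the 211 lead peaks with a match in each library, log2 signals gave a Pearson's r of 0.942 and ranks a Spearman's rho of 0.911, a description across peaks of the same 2 libraries. Of the 216 lead peaks, 210 were within the strongest 1338 candidates of replicate 1 and 192 within those of replicate 3. The 5 lead peaks without a match in 1 replicate were in Cph, CG43658, Nplp1, Gfrl and Smyd4-3, named here after their values were seen, and none of them had the 19 bp sequence.

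**Figure D3:**
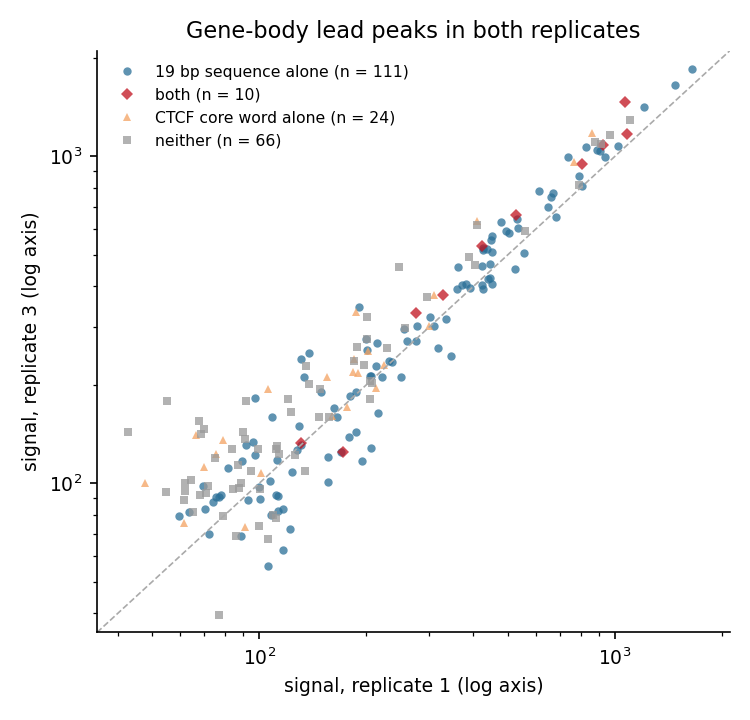
Signal in replicate 1 (horizontal log axis) and replicate 3 (vertical log axis) for the 211 gene-body lead peaks matched in both, marked by the sequence at the summit; the dashed line marks equal values. Points follow the line with more scatter at low signal, where peaks with neither sequence (grey, 66 peaks) are common.

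The 19 bp sequence lay within the 101 bp window of 121 of the 216 gene-body lead peaks, 56.0% (49.1 to 62.7). In windows of the same size centred 250 bp to the left it was found in 11, or 5.09%. In 113 peaks only the summit window had it and in 3 only the flank (exact McNemar test, two-sided, adjusted p = 3.76e-29 over 6 sequences). Among the 16914 other gene-body candidates it was found at 6.63% of summits and 5.92% of left flanks. By location the share was 57.0% in introns, 52.9% in 3' UTRs, 61.5% in coding exons, 57.1% in 5' UTRs and 25% in other exons, with exact intervals of 18.4 to 90.1 for the 7 peaks in 5' UTRs and 0.631 to 80.6 for the 4 in other exons. Site centres lay 18 bp from the summit at the median, and 69 of the 121 lay within 20 bp. The site was on the strand of the host gene in 68 of 121 (56.2%, interval 46.9 to 65.2). Lead peaks with the sequence had a median signal of 475 and those without it 267. Across the 121 sites, signal and matrix score had a Spearman's rho of 0.169, a description across peaks.

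Over all 1080 lead IDR peaks the same sequence was present in 64%. To compare classes, each arm was scored with a matrix learned on peaks of the other arms. By that measure 120 of 216 gene-body lead peaks had it (55.6%, 48.7 to 62.3), against 453 of 629 promoter lead peaks (72.0%, 68.3 to 75.5). The difference was -16.5 percentage points (odds ratio 0.486, two-sided Fisher's exact test, adjusted p = 3.02e-05 over 4 comparisons). Against intergenic lead peaks, with 118 of 235 (50.2%, 43.6 to 56.8), the difference was 5.34 points and did not pass the threshold (exact test, adjusted p = 0.346). It did pass with protein-coding genes only, at 10.002 points (exact test, adjusted p = 0.0329). Signal moved with this result. In the weakest signal quartile of all lead peaks, gene-body peaks had the sequence in 43.7% (38 of 87) and promoter peaks in 39.5% (45 of 114). In the second quartile the shares were 50.8% for gene-body and 59.9% for promoter peaks, in the third 78.4% and 79.8%, and in the strongest 74.1% (20 of 27) and 92.5% (185 of 200). No test was run within quartiles. Of gene-body lead peaks 27 were in the strongest quartile, against 200 of the promoter lead peaks. In the stronger part of the list by itself, above the median signal, the difference was -9.43 points (exact test, adjusted p = 0.102). With shoulder summits kept and used to learn the matrix it was -2.09 points (exact test, adjusted p = 0.575), and the share of gene-body peaks with the sequence, by the matrix learned on the other classes, was 22.7%.

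The CTCF core word was the other sequence, of the 6 searched, that passed the test of summits against flanks. Its words came up in an earlier look at all peaks, gene-body peaks included. The flank test thus describes these data and is not independent support. The same holds for the comparisons between classes that follow, which were added after the data were seen. A core word was present in 35 of the 216 gene-body lead peaks (16.2%, 11.6 to 21.8) and in 3 left flanks (1.39%), an exact McNemar adjusted p of 2.00e-07. Over all 1080 lead IDR peaks the share was 10%. Promoter lead peaks had it in 27 of 629 (4.29%, 2.85 to 6.18), which was 11.9 points lower than gene-body peaks (odds ratio 4.31, two-sided Fisher's exact test, adjusted p = 2.99e-07). Intergenic lead peaks had it in 46 of 235 (19.6%), and the difference of -3.37 points did not pass the threshold (exact test, adjusted p = 0.391). With protein-coding genes only it was -8.35 points and passed (exact test, adjusted p = 0.0308). By signal quartile, from weak to strong, gene-body lead peaks had a core word in 11.5%, 21.5%, 13.5% and 22.2%, and promoter lead peaks in 8.77%, 4.93%, 3.47% and 2.0%. The form AGATGGCG was in 19 gene-body lead peaks and AGGTGGCG in 17. Of the other words searched on both strands, the word GAGAGAG, bound by the Trithorax-like protein Trl, was at 4 summits and no flank (exact test, adjusted p = 0.250). TATCGATA (DREF and BEAF-32) and GGTCACACT (M1BP) were at no summit and no flank, and CAGGTAG (Zelda) was at no summit and 1 flank. A word found at no summit allows a share of up to 1.69% of such windows.

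**Figure D4:**
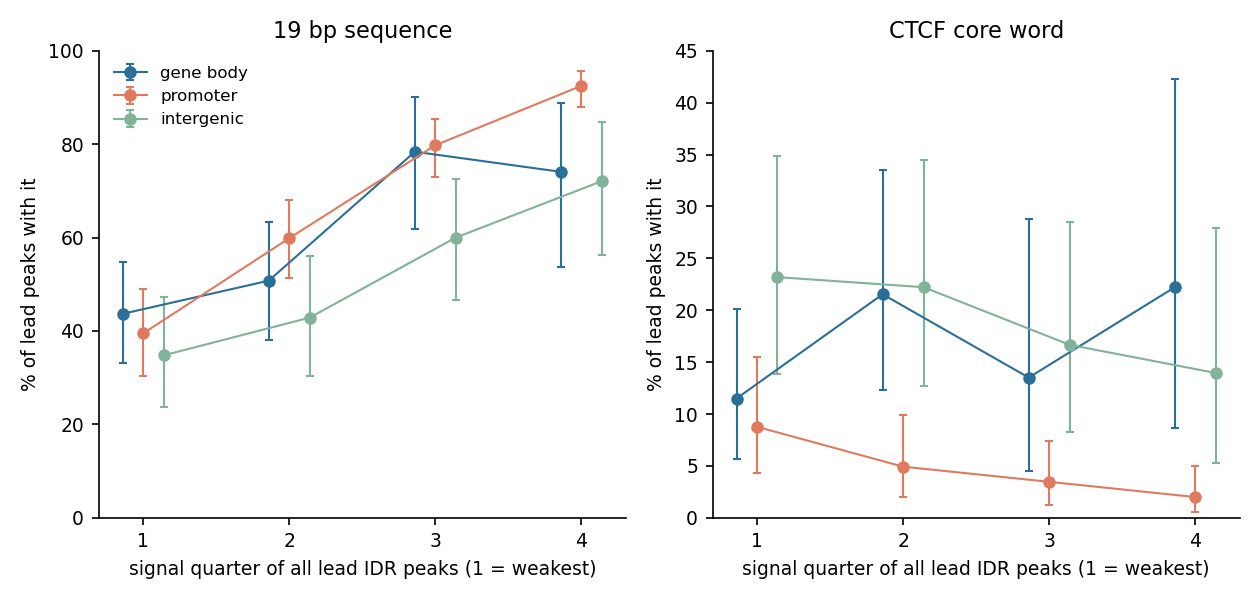
Percentage of lead peaks with the 19 bp sequence (left) and with a CTCF core word (right) by signal quartile of all lead IDR peaks, for gene-body (blue), promoter (orange) and intergenic (green) peaks, with exact 95% intervals. The 19 bp share of gene-body peaks is 43.7% and 50.8% in the 2 weaker quartiles and 78.4% and 74.1% in the 2 stronger ones. The CTCF share of gene-body peaks lies above that of promoter peaks in every quartile, by least in the weakest (11.5% against 8.77%). It lies below that of intergenic peaks in all but the strongest quartile.

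Together the 2 sequences divided the gene-body lead peaks into unequal groups. The 19 bp sequence alone was in 111, both were in 10, a CTCF core word alone was in 25, and 70 (32.4%) had neither. A core word occurred in 10 of the 121 peaks with the 19 bp sequence (8.26%) and in 25 of the 95 without it (26.3%). Median signal was 1073 for the 10 peaks with both, 464 with the 19 bp sequence alone, 366 with a core word alone and 242 with neither. Peaks with both included Egfr, retn, Hr4 and nrv2 among the 20 strongest. Peaks with a core word alone included Asator and EcR. Among the 20 strongest lead peaks 14 had the 19 bp sequence and 6 a core word. The 4 with neither were in Tet, sick, Eip74EF and bun. The median GC content of the window was 39.1% in peaks with neither, 43.6% with the 19 bp sequence alone and 44.6% with a core word alone.

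Most matches to the matrix inside genes had no reproducible peak. A match is any place above the score that 5% of flank windows reach, so many matches need not be binding sites. The shares depend on that threshold. The matrix matched 62325 places in gene bodies, and 172 of them (0.276%) lay within 50 bp of an IDR summit. In promoters the share was 698 of 14220 (4.91%) and between genes 179 of 26314 (0.680%). With score the shares differed. Among the strongest quartile of matches by score, 150 of 15167 in gene bodies had an IDR summit (0.989%, 0.838 to 1.16), against 593 of 4044 in promoters (14.7%, 13.6 to 15.8) and 147 of 6504 between genes (2.26%, 1.91 to 2.65). In the other quartiles gene-body shares were 0.0319%, 0.0636% and 0.0445%. The matrix was learned on promoter and intergenic peaks, so those shares are not held out as the gene-body share is, and no test was run.

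**Figure D5:**
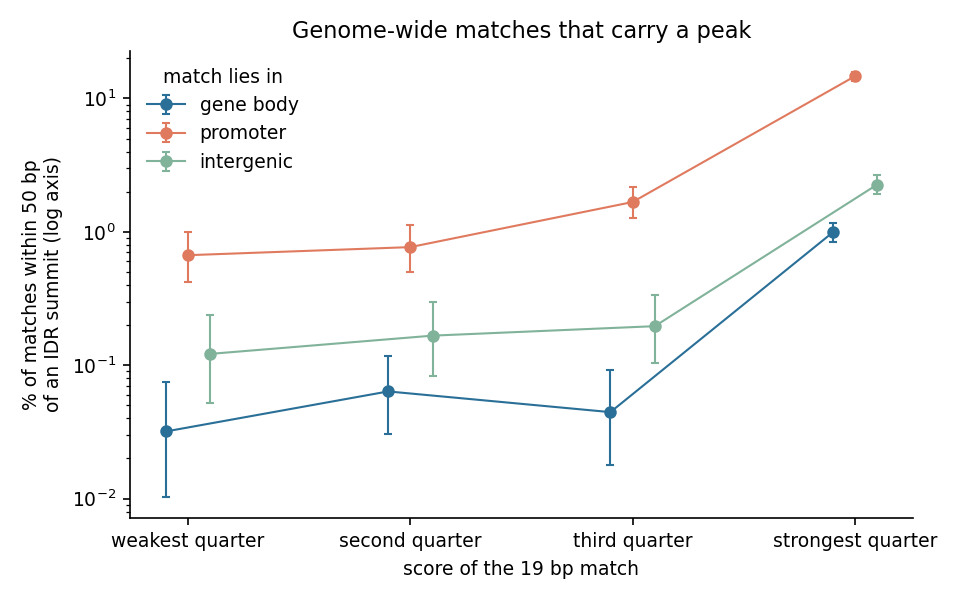
Percentage of genome-wide matches to the 19 bp matrix that lie within 50 bp of an IDR summit (vertical log axis) by quartile of match score, for matches in gene bodies (blue), promoters (orange) and intergenic sequence (green), with exact 95% intervals. In the strongest quartile the share is 0.989% in gene bodies, 14.7% in promoters and 2.26% between genes.

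The IDR list ended within a range where the sequence was still common. Of the 50 weakest gene-body lead peaks, with pooled signals of 144 to 206, 21 had the 19 bp sequence (42%, interval 28.2 to 56.8). The 50 strongest gene-body candidates outside the list, with signals of 97.9 to 142, also had it in 21 (42%). Over the 216 strongest such candidates, down to a signal of 73.6, the share was 17.1% at the summit and 6.02% in the left flank.

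Across the chromosomes, gene-body lead peaks were densest on X, with 58 peaks or 3.80 per Mb of gene body, against 2.98 on 3L, 2.63 on 2L, 2.43 on 3R and 1.84 on 2R. Densities by arm were not computed for promoter or intergenic peaks, so whether this order is particular to gene-body peaks was not tested. X peaks were weaker, with a median signal of 295 against 339 on 3R and 436 to 457 on the other large arms, and 36 of the 58 had the 19 bp sequence. Chromosome 4 had 2 lead peaks, in Asator and at sv, and chromosome Y none. Lead peaks were mostly isolated from other lead peaks, with a median distance of 28517 bp to the nearest other lead summit, and 32 of the 216 had another within 5000 bp.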

How the data were processed

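Per the labels, the libraries are biological replicates 1 and 3 of anti-GFP ChIP-seq, although the antibody field names pita. The signal of each peak is the authors' deposited value; the notes say that candidates were called against a control alignment, which was not analysed here. Not given in the sources used here were the aligner, the peak caller, the IDR threshold and how signal was scaled. The dm6 lists were used with Ensembl release 115 genes and RefSeq sequence; transposable elements were not counted as genes. A summit in several features counted for UTRs before coding exons, then other exons, then introns. Pooled candidates more than 100 bp from every IDR summit served as the other candidates. The matrix was learned in 8 rounds, calling it present above a score reached by 5% of flank windows, starting from the best of the 8 most enriched words of 8 bp. That start, and the rule that shoulder summits do not train the matrix, were adopted after some alternatives had been seen, and the earlier settings are given among the alternatives.

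Fisher's exact test and the exact McNemar test were used, two-sided, at a threshold of 0.05 after Benjamini-Hochberg adjustment over each family of tests. Fisher's exact test, the matrix learning and the shoulder flags were run on simulated data, and the McNemar test was not. Named peaks are the 20 lead peaks of highest signal, the 2 strongest of each location class, genes with 3 or more lead peaks, list genes with a lead peak, pita, and the 3 summits nearest the TSS limit on either side. The comparisons of the CTCF core word between classes were added after the data were seen, and members and lists were chosen with earlier results of these data known. The CTCF core words themselves came up in an earlier look at all peaks. Symbols calypso and punt of the lists were not matched. The work used pandas 2.3.3, SciPy 1.17.1 and NumPy 2.4.6 under Python 3.11.15.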

Additional observations from a re-analysis of the deposited data

How the results depend on the processing

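The share of IDR summits in gene bodies was 24.0% with a TSS limit of 200 bp, 14.9% with 1000 bp and 12.4% in the stronger part of the list above its median signal. With 1 replicate left out, through the strongest candidates of the other, it was 18.0% to 19.6%, the intron share 72.1% to 72.6%, the 19 bp share 56.2% to 57.7% and the core-word share 13.7% to 14.4%. The median signal was then 175 to 213, on the scale of a single library, and it was 968 in the stronger part of the list. The 19 bp difference between gene-body and promoter lead peaks was -16.5 to -11.5 points with a replicate left out, and that from intergenic peaks 5.28 to 8.15 points. The core-word differences were 9.04 to 10.1 points from promoter and -3.91 to -3.83 points from intergenic peaks. The promoter difference in the 19 bp sequence missed the threshold in the stronger part of the list (-9.43 points, exact test, adjusted p = 0.102), and with shoulder summits kept and used to learn the matrix (-2.09 points, exact test, adjusted p = 0.575). In that setting the 19 bp share of gene-body peaks was 22.7%.

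With protein-coding genes only, the intergenic differences passed the threshold, at 10.002 points for the 19 bp sequence (exact test, adjusted p = 0.0329) and -8.35 points for the core word (exact test, adjusted p = 0.0308). With a window of 100 bp and the single most enriched starting word, the promoter difference in the 19 bp sequence reversed to 21.2 points and the intergenic one was -10.4 points. In this setting the starting word was a CTCF core word in 6 of 6 arms, and in 0 of 6 by the start used for the results; the matrices they led to were not compared, and the cause was not tested. With a single starting word and shoulder summits used in learning, the promoter difference was 3.90 points (exact test, adjusted p = 0.195), and 1 of 6 starting words was a CTCF core word. With a single starting word and a replicate left out, the share was 56.2% to 57.7%, the promoter difference -12.1 to -11.8 points and the intergenic difference -0.704 to 7.59 points. With the window of 100 bp and the 8 starting words the promoter difference was -19.7 points. The share matched in replicate 1 was 99.2% within 200 bp. The intron share and the core-word share kept their direction and their side of the threshold in 7 of 7 alternatives each, and the core-word difference from promoter peaks in 8 of 8. A single starting word and shoulders used in learning were the earlier settings, replaced after some alternatives had been seen. They were then kept among the alternatives.

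No paired analysis was possible because the design holds 1 group of 2 libraries. Read depth is unknown, the other candidates include background, and the tests describe peaks of 1 list, not animals.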
